A study of Homo sapiens with 6 samples.

Results

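The genes described here are 10 core members of the NOTCH pathway, chosen by name and role and not by how they responded. They are the receptors NOTCH1, NOTCH2 and NOTCH3, the ligands JAG1, JAG2, DLL1 and DLL4, and the targets HES1, HEY1 and NRARP. All 10 were among the 38100 genes of the count table, and 9 passed the filter on low counts that left 17720 genes for testing. RNA was sequenced from HK2 cells, an immortalised human proximal tubular epithelial line labelled as wild type, in 2 groups of 3 libraries. AdCtrl cells received a control adenovirus with an empty vector, AdSirt4 cells received an adenovirus carrying SIRT4, and cells of both groups were stimulated with TGF-β1. No library without TGF-β1 and none without virus was analysed here, so all differences below are differences between virally transduced, TGF-β1 stimulated cells. The groups came from 1 cell line, and the study describes its in vitro replicates as technical, so p-values measure the spread between these libraries only.

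NOTCH receptors are transmembrane proteins that are switched on by Jagged or Delta-like ligands on a neighbouring cell. Ligand binding exposes the receptor to ADAM proteases and then to γ-secretase, and the released intracellular domain enters the nucleus, joins the DNA-binding protein RBPJ and turns on target genes such as HES1, HEY1 and NRARP. In the kidney the pathway takes part in proximal tubule formation during nephron development, and its reactivation in tubular epithelium has been linked to fibrosis.

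HES1 is the textbook direct target of the RBPJ complex, and the sequence before its start is shown because it holds 2 exact copies of TGGGAA, a core bound by RBPJ. The stretch covers the 150 bases before the RefSeq start on the plus strand, chr3:194135998-194136147 in GRCh38.p14, and the capitals mark the core TGGGAA.
HES1 upstream: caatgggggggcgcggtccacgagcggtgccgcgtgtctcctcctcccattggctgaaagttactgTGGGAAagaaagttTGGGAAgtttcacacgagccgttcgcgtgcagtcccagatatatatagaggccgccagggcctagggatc
The first bases of the cores lay at -84 and -70 from the start, with 8 bases between the copies. The core, searched on both strands in windows of 250 bases before to 50 bases after a start, occurred in 24.0% of 35116 RefSeq promoters and at least 2 times in 3.80% of them. RefSeq promoters were matched for 8 of the 10 genes, not for DLL1 and HEY1, and HES1 was the only one of the 8 that held the core. The N box CACNAG, the motif bound by HES repressors, occurred in 38.0% of all promoters and was found 4 times in the HES1 window, 2 times in that of NOTCH1, once each in those of NOTCH2, NOTCH3, DLL4 and NRARP, and not in those of JAG1 and JAG2. These matches describe letters in a window and not occupied sites. Only exact copies of TGGGAA were searched as RBPJ core, so other forms of an RBPJ site stay unmarked in the printed stretch. Whether the marked copies are the pair of sites that RBPJ binds was not tested.

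SIRT4 itself had 31 to 57 counts per library in AdCtrl and 1996 to 7995 in AdSirt4, a log2 fold change of 6.36 (SE 0.357, adjusted p = 0.00801, edgeR quasi-likelihood test with Benjamini-Hochberg adjustment), so each library matched its label. Libraries held 41537353 to 85684748 counts. AdSirt4 replicate 1, the smallest of them, stood apart from its group: its log2 CPM relative to the other AdSirt4 libraries fell with gene length (Spearman's rho -0.582 across genes, which are not independent replicates), against -0.176 to 0.171 for each AdCtrl library relative to the other AdCtrl libraries. The genes span 1.80 to 13.0 kb of length implied by the deposited tables. Fitted differences of single genes are therefore given below with and without that library, whose removal leaves 2 libraries in AdSirt4. Of the epithelial markers, KRT8 stood at 751 to 1095 counts per 1000000 library counts (CPM, scaled by the TMM method) and CDH1 at 0.504 to 0.869, and 7 of the 10 proximal tubule transport markers, including LRP2, CUBN and AQP1, were below 1 CPM in every library. All 6 endothelial markers were likewise below 1 CPM and COL3A1 had no count, although the mural marker RGS5 reached 640 to 800 CPM. Of the 6 immune markers 4 were below 1 CPM, CD3E having no count, while CD68 stood at 31.6 to 46.5 CPM and CD14 at 1.93 to 2.95.

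Across all 6 libraries none of the 9 tested genes passed an adjusted p of 0.05 in edgeR, a threshold that 0.0113% of all tested genes, SIRT4 and ADAMTS1, passed. At an unadjusted p of 0.01, which 1.91% of all tested genes passed and 0.784% passed with lower values in AdSirt4, JAG1 was the only one of the 9. Fitted differences were below 0 for 7 genes and above 0 for 2, with a median log2 fold change of -0.24 beside 0.02 for all tested genes. Without AdSirt4 replicate 1, JAG1, NOTCH3 and NRARP fell in AdSirt4 at an adjusted p of 0.05, 3 of 9 genes beside 6.71% of all tested genes in either direction and 3.34% downwards. In that fit 5 of the 9 differences were below 0 and 4 above, with a median of -0.33 beside -0.0028 for all genes. In bulk RNA, fewer cells of a kind and less RNA per cell cannot be told apart.

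**Figure D1:**
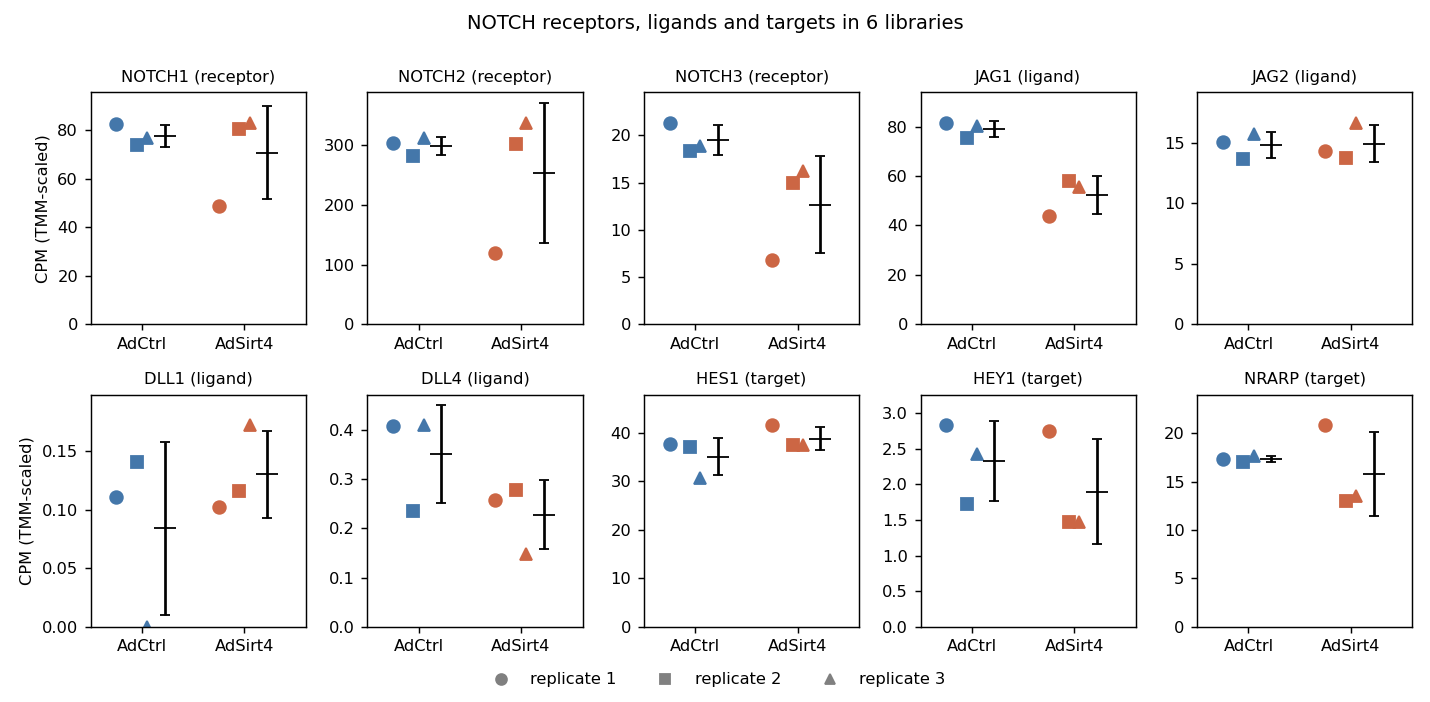
TMM-scaled CPM of each NOTCH gene (vertical axes, each from 0) in the 3 AdCtrl and 3 AdSirt4 libraries, with the marker shape giving the replicate number and the bar beside the points giving mean ± SD. All 3 AdSirt4 points lie below all AdCtrl points for NOTCH3 and JAG1, and AdSirt4 replicate 1 (circle) is the lowest point for NOTCH1 and NOTCH2 and the highest AdSirt4 point for HEY1 and NRARP.

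Per unit of gene length, NOTCH2 was the most abundant receptor transcript and JAG1 the most abundant ligand transcript. In AdCtrl, mean FPKM (fragments per kilobase of gene, scaled for depth) was 23.2 ± 1.88 (SD, n = 3) for NOTCH2, 19.6 ± 1.62 for HES1, 11.8 ± 0.779 for JAG1 and 7.19 ± 0.495 for NOTCH1. NRARP followed at 5.79 ± 0.286 FPKM, JAG2 at 2.29 ± 0.222, NOTCH3 at 2.00 ± 0.175 and HEY1 at 0.934 ± 0.246. DLL4 at 0.0872 ± 0.0276 FPKM and DLL1 at 0.0161 ± 0.0145 were lowest. Among neighbours in this order, only JAG2 and NOTCH3 had overlapping ranges in AdCtrl. In AdSirt4 the FPKM order differed between libraries, since NOTCH2 stood at 8.53 in replicate 1, below HES1 at 21.4, and at 23.5 and 26.4 in replicates 2 and 3, above HES1 at 21.0 and 21.2.

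NOTCH1 (Entrez gene 4851, GRCh38.p14 chr9:136494433-136546048) encodes a receptor used across epithelia and blood cells. Its CPM was 82.7, 73.9 and 76.7 in AdCtrl and 48.6, 80.5 and 83.1 in AdSirt4. The groups overlapped, with AdSirt4 replicate 1 alone below the AdCtrl range. In log2 terms the group difference was -0.14 (95% interval -0.61 to 0.34, edgeR adjusted p = 0.843) and became 0.07 (SE 0.0567, adjusted p = 0.502) without that library.

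NOTCH2 (Entrez gene 4853, chr1:119911553-120069662) encodes the receptor required for proximal nephron fate. It gave 303.3, 281.9 and 311.7 CPM in AdCtrl and 119.7, 302.1 and 337.7 in AdSirt4. AdSirt4 replicate 1 stood far below the other 5 libraries, which spanned 281.9 to 337.7 CPM. The NOTCH2 log2 fold change of -0.24 (95% interval -1.07 to 0.59, edgeR adjusted p = 0.840) became 0.09 (SE 0.0630, adjusted p = 0.399) without it. The median of tested genes at the length of NOTCH2 differed by -0.76 on the log2 scale between AdSirt4 replicate 1 and the mean of replicates 2 and 3, and NOTCH2 by -1.42. With each library's length trend removed, NOTCH2 in AdSirt4 replicate 1 stood at 180.1 CPM, below the 263.8 to 294.3 of the AdCtrl libraries. The human-specific partial copies NOTCH2NLA, NOTCH2NLB, NOTCH2NLC and NOTCH2NLR can share reads with NOTCH2, so the values of all 5 genes are uncertain. Their summed CPM was 44.2 to 50.5 in AdCtrl and 32.1 to 52.6 in AdSirt4, and their log2 fold changes were -0.13, -0.24, 0.01 and 0.00 in the order named. Without AdSirt4 replicate 1 these log2 fold changes were -0.06, 0.08, 0.20 and 0.19.

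NOTCH3 (Entrez gene 4854, chr19:15159038-15200995) encodes the receptor best known from vascular mural cells. The 3 AdCtrl libraries gave 21.3, 18.3 and 18.9 CPM and the 3 AdSirt4 libraries 6.83, 15.0 and 16.2. All AdSirt4 values lay below all AdCtrl values, which held for 9.77% of all tested genes in this direction. NOTCH3 had a log2 fold change of -0.61 (SE 0.298, edgeR adjusted p = 0.678), and the two-sided exact permutation test gave p = 0.1, the smallest that 3 against 3 libraries allow. Without AdSirt4 replicate 1, NOTCH3 fell by 0.33 on the log2 scale (SE 0.0852, edgeR adjusted p = 0.0432), or 1.26-fold. With the length trend removed from all 6 libraries, the log2 fold change was -0.54 (edgeR adjusted p = 0.232). AdSirt4 replicate 1 was -1.19 from the mean of replicates 2 and 3 on the log2 scale, against -0.59 for the median gene of that length. Of 6 fibroblast and mural markers COL3A1 had no count and 3 in all were below 1 CPM in every library, and their summed CPM, mostly RGS5, was 735 to 807 in AdCtrl and 663 to 819 in AdSirt4. Within the list COL1A1 gave 26.6, 24.8 and 26.0 CPM in AdCtrl and 17.7, 24.5 and 22.7 in AdSirt4, groups that did not overlap (log2 fold change -0.25, edgeR adjusted p = 0.701, and -0.14 without AdSirt4 replicate 1). The log2 fold changes of PDGFRB and DCN, at -0.45 (SE 0.319) and -0.29 (SE 0.431), were also below 0 but not resolved (edgeR adjusted p = 0.744 and 0.841). Without that library they were -0.34 and -0.72 (adjusted p = 0.535 and 0.323). PDGFRB had 26 to 83 counts per library and DCN only 12 to 17. The part of such cells in the NOTCH3 values was not tested.

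As a share of the summed receptor FPKM, which does not depend on library scaling, NOTCH3 made up 6.56%, 6.14% and 5.82% in AdCtrl and 4.80%, 4.74% and 4.68% in AdSirt4. The groups did not overlap, and AdSirt4 replicate 1 lay with its group (difference of means -1.43 points, exact permutation p = 0.1). This test was added to those planned for the NOTCH2 and JAG1 shares. NOTCH2, the largest part of the sum, was also low in AdSirt4 replicate 1, at 8.53 FPKM against 23.5 and 26.4 in replicates 2 and 3. Relative to NOTCH1 FPKM, NOTCH3 stood at 0.286, 0.274 and 0.272 in AdCtrl and at 0.154, 0.207 and 0.216 in AdSirt4, replicate 1 being the lowest. NOTCH2 made up 71.6% ± 1.16 (SD) of receptor FPKM in AdCtrl and 70.1% ± 5.20 in AdSirt4, a difference of -1.55 points (exact permutation p = 0.9) that was 1.43 points in the other direction without AdSirt4 replicate 1. NOTCH1 made up the remaining 22.2% ± 0.795 and 25.2% ± 5.15.

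JAG1 (Entrez gene 182, chr20:10637684-10673999) encodes the Jagged ligand whose loss in humans causes Alagille syndrome. Its CPM was 81.5, 75.3 and 80.0 in AdCtrl and 43.7, 57.9 and 55.5 in AdSirt4. Every AdSirt4 library lay below every AdCtrl library, AdSirt4 replicate 1 being the lowest, and means were 79.0 ± 3.27 and 52.4 ± 7.59 CPM (SD, n = 3 each), 1.51-fold apart. The log2 fold change was -0.59 (SE 0.125, 95% interval -0.89 to -0.30), with p = 0.00213 before and 0.494 after adjustment in edgeR (two-sided exact permutation p = 0.1). The unadjusted edgeR p was 0.0114 without AdCtrl replicate 1 and 0.0105 without AdCtrl replicate 3, just above 0.01. Without AdSirt4 replicate 1, JAG1 fell by 0.48 on the log2 scale (SE 0.0541, edgeR adjusted p = 0.00111), or 1.40-fold. The call on all 6 libraries depended on the tool, with an adjusted p of 0.00933 in DESeq2, which called 1.16% of all tested genes, and 0.00203 in limma voom with sample quality weights, which called 9.51%.

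JAG1 was also set against the length trend. AdSirt4 replicate 1 was -0.37 from the mean of replicates 2 and 3 on the log2 scale, close to the -0.35 of the median gene of that length, and with the trend removed JAG1 stood at 52.9, 55.7 and 51.9 CPM in AdSirt4 and 79.8, 73.2 and 76.5 in AdCtrl. This left a log2 fold change of -0.52 (edgeR adjusted p = 0.0745). In 20 fits with different tools, filters, scalings and left-out libraries it ranged from -0.66 to -0.47, below 0 in all 20. These fits reuse the same libraries, whose JAG1 groups do not overlap, so the shared sign is not separate evidence. The adjusted p was under 0.05 in 4: DESeq2 and voom on all libraries, and edgeR and DESeq2 without AdSirt4 replicate 1. Exons of JAG1 share 79 of 9298 annotated bases with a gene on the opposite strand, and no source used here states strand-specific counting.

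JAG2 (Entrez gene 3714, chr14:105140995-105168776), the other Jagged ligand, gave 15.0, 13.7 and 15.7 CPM in AdCtrl and 14.3, 13.8 and 16.6 in AdSirt4. The ranges overlapped almost fully, and the log2 fold change was 0.01 (95% interval -0.27 to 0.28, edgeR adjusted p = 0.980) and 0.03 without AdSirt4 replicate 1. Exons of JAG2 share 469 of 6397 annotated bases with another gene on the same strand.

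Because JAG1 and JAG2 have nearly the same length here, 6.78 and 6.52 kb, their ratio is little affected by a length trend. This ratio was chosen after the values were seen. JAG1 FPKM was 5.23, 5.28 and 4.93 times JAG2 FPKM in AdCtrl and 2.94, 4.03 and 3.07 times in AdSirt4. The groups did not overlap, with means of 5.14 ± 0.191 and 3.35 ± 0.594 (SD, n = 3, exact permutation p = 0.1), and AdSirt4 replicate 1 lay beside replicate 3. JAG1 made up 83.2%, 83.5% and 82.5% of the summed ligand FPKM in AdCtrl and 73.9%, 79.4% and 74.9% in AdSirt4, a difference of means of -7.03 points (exact permutation p = 0.1). Nearly all of the remainder was JAG2, at 16.2% ± 0.512 in AdCtrl and 23.1% ± 2.95 in AdSirt4.

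The Delta-like ligands were near the limit of detection. DLL1 (Entrez gene 28514, chr6:170282206-170291078), a ligand of somite and nephron segment patterning, had 6, 6 and 0 counts in AdCtrl and 4, 10 and 14 in AdSirt4, and was not tested. A count of 0 in AdCtrl replicate 3 allows up to 3 counts, or 0.0598 CPM, and such limits cover counting error only. DLL4 (Entrez gene 54567, chr15:40929340-40939073), the ligand of sprouting endothelium, had 22, 10 and 21 counts in AdCtrl and 10, 24 and 12 in AdSirt4. Its CPM overlapped between groups, at 0.235 to 0.409 against 0.148 to 0.278, and the log2 fold change of -0.65 had a 95% interval of -1.58 to 0.29 (edgeR adjusted p = 0.719) and was -0.73 (adjusted p = 0.353) without AdSirt4 replicate 1. The summed CPM of the endothelial markers was similarly low, 0.425 to 0.636 in AdCtrl and 0.513 to 0.766 in AdSirt4, and its part in the DLL4 counts was not tested.

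HES1 (Entrez gene 3280, chr3:194136148-194138732), the repressor whose upstream sequence is shown above, gave 37.6, 37.0 and 30.8 CPM in AdCtrl and 41.5, 37.5 and 37.4 in AdSirt4. The lowest value was AdCtrl replicate 3, and the groups overlapped between 37.4 and 37.6 CPM. In the length-normalised table they did not overlap, with AdSirt4 higher, at 20.97, 20.1 and 17.8 FPKM in AdCtrl and 21.4, 21.01 and 21.2 in AdSirt4. HES1 had a log2 fold change of 0.14 (95% interval -0.12 to 0.41, edgeR adjusted p = 0.752) and 0.09 (adjusted p = 0.561) without AdSirt4 replicate 1. It was above 0 in all 20 fits, which reuse the same libraries, at 0.06 to 0.20, and passed an adjusted p of 0.05 in none of them.

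HEY1 (Entrez gene 23462, chr8:79764010-79767767), a related repressor, gave 2.83, 1.72 and 2.43 CPM in AdCtrl and 2.75, 1.47 and 1.48 in AdSirt4. AdSirt4 replicate 1 lay within the AdCtrl range and the other AdSirt4 libraries below it. The log2 fold change of -0.32 (SE 0.316, edgeR adjusted p = 0.784) became -0.67 (SE 0.226, adjusted p = 0.09999) without that library.

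NRARP (Entrez gene 441478, chr9:137299631-137302271) encodes a feedback inhibitor that is induced by NOTCH and binds its nuclear complex. It gave 17.4, 17.1 and 17.7 CPM in AdCtrl and 20.8, 13.0 and 13.5 in AdSirt4. The AdCtrl libraries lay close together, with an SD of 0.295 CPM, and the AdSirt4 libraries lay on both sides of them. The log2 fold change was -0.14 (SE 0.189, edgeR adjusted p = 0.824) with all libraries, and without AdSirt4 replicate 1 NRARP fell by 0.40 (SE 0.0735, adjusted p = 0.0130), or 1.32-fold. AdSirt4 replicate 1 was 0.65 above the mean of replicates 2 and 3 on the log2 scale, where the median gene of its length was 0.13 above.

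Among the targets, then, HEY1 and NRARP gave values of the same direction as JAG1 and NOTCH3 in AdSirt4 replicates 2 and 3 and HES1 did not. Counts of genes whose groups do not overlap were 2 of 9, NOTCH3 and JAG1, beside 19.4% of all tested genes, both with lower CPM in AdSirt4. On the FPKM scale they were 3 of 9, with HES1 added in the direction of higher values, beside 17.2% of all tested genes in either direction and 7.95% upwards. On the CPM scale without AdSirt4 replicate 1 they were 4 of 9, with HEY1 and NRARP added, beside 41.8% of all tested genes in either direction and 20.7% downwards.

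**Figure D2:**
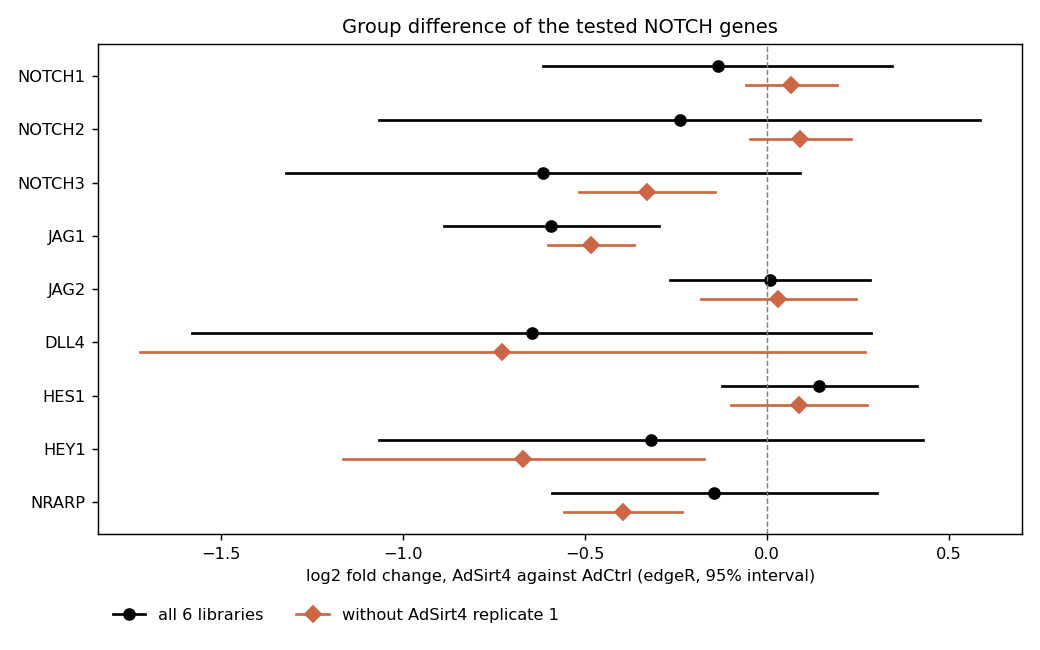
Log2 fold change of each tested NOTCH gene, AdSirt4 against AdCtrl, with 95% intervals from edgeR (horizontal axis), for all 6 libraries (black circles) and without AdSirt4 replicate 1 (orange diamonds). The JAG1 interval lies below 0 in both fits, from -0.89 to -0.30 and from -0.60 to -0.36, while NOTCH1 and NOTCH2 pass from values below 0 to values just above 0.

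The rest of the pathway was read from a list of 75 genes in 7 role groups, of which 69 were tested. None passed an adjusted p of 0.05 in edgeR and 1, HES7, passed an unadjusted p of 0.01, beside 1.91% of all tested genes. Differences were above 0 for 31 and below 0 for 38, with a median log2 fold change of -0.01 beside 0.02 for all tested genes. Without AdSirt4 replicate 1, 2 of the 69 passed an adjusted p of 0.05, beside 6.71% of all tested genes: HES7 fell and NEDD4 rose.

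HES7, a repressor known as a component of the somite segmentation clock, gave 4.27, 4.73 and 4.09 CPM in AdCtrl and 2.75, 2.73 and 2.44 in AdSirt4. The groups did not overlap and AdSirt4 replicate 1 lay with its group. The log2 fold change was -0.73 (SE 0.141, edgeR adjusted p = 0.461) and -0.76 (adjusted p = 0.0151) without that library. NEDD4, a ubiquitin ligase, was named after its values were seen. Its CPM was 155.6 to 169.5 in AdCtrl and 132.5, 190.5 and 216.3 in AdSirt4, and its log2 fold change was 0.14 (edgeR adjusted p = 0.814) with all libraries and 0.32 (adjusted p = 0.0173) without AdSirt4 replicate 1.

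Among the enzymes that glycosylate the receptors, LFNG, a Fringe that alters their response to Jagged and Delta-like ligands, gave 66.9, 67.6 and 65.0 CPM in AdCtrl and 96.9, 76.6 and 74.1 in AdSirt4. All AdSirt4 values lay above all AdCtrl values, the highest being AdSirt4 replicate 1 (log2 fold change 0.31, edgeR adjusted p = 0.612, and 0.18, adjusted p = 0.0567, without that library). POGLUT1, which adds O-glucose to the receptors, had a log2 fold change of 0.16, and 0.19 without that library. The 11 genes of this group split into 5 above and 6 below 0.

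In the machinery that acts on ligands, MIB2, a ubiquitin ligase for Jagged and Delta-like proteins, gave 28.6, 29.4 and 27.8 CPM in AdCtrl and 42.4, 31.1 and 32.3 in AdSirt4. AdSirt4 replicate 1 was the highest, and the log2 fold change of MIB2 was 0.30 with it and 0.14 without it. The related ligase NEURL1B had a log2 fold change of -0.31, and -0.22 without that library. Of the 8 tested genes of receptor cleavage, 6 were below 0, among them ADAM10, the protease of the first cut, at 264.9 ± 7.25 CPM in AdCtrl and 233.4 ± 12.7 in AdSirt4 (SD, n = 3). The ADAM10 log2 fold change was -0.18 over all libraries, -0.15 without AdSirt4 replicate 1 and 0.01 with the length trend removed. Of the 20 nuclear genes 12 were below 0, including the corepressor TLE4 at -0.21 and L3MBTL3, a chromatin factor that binds RBPJ, at -0.39, whereas RBPJ itself stood at 0.12. Without AdSirt4 replicate 1 these log2 fold changes were -0.18, -0.28 and 0.18 (edgeR adjusted p = 0.103, 0.139 and 0.0601).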

How the data were processed

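Expression tables of 6 HK2 libraries, 3 AdCtrl and 3 AdSirt4, were used as deposited. The submitters' processing notes name fastp 0.21.0, HISAT2 2.1.0, StringTie 2.1.5, DESeq2 1.30.1 and hg38, without their settings, and strandedness is not given in the sources used here. Counts are the authors' raw whole-number reads per gene, and the second table was deposited as FPKM by its values, which are counts divided by length and depth, with the unit inferred here.

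Counts, 41537353 to 85684748 per library, were filtered with filterByExpr (minimum 10) and TMM-scaled, and groups were compared with edgeR 4.0.16 (robust quasi-likelihood test, Benjamini-Hochberg adjustment over 17720 genes, threshold 0.05) in R 4.3.3. Intervals are 95%. DESeq2 1.42.0, limma 3.58.1 (voom with sample weights, and log2(FPKM + 1)), other filters, a lowess length trend (span 0.3) removed per library, and left-out libraries were alternatives. The edgeR steps were tested on simulated counts with the same dispersion for every gene, without and with a length trend in AdSirt4 replicate 1. Other deviations of that library were not simulated. Single values were compared by two-sided exact permutation over libraries.

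Same-numbered libraries of both groups deviated together (correlations 0.171, 0.156 and 0.169, against -0.182 to 0.028 for other pairs), so a replicate block was fitted as an alternative. The genes and lists were chosen with earlier results of these data known. Genes named are the 10 NOTCH genes, SIRT4, the NOTCH2 copies, the 8 genes of the pathway list with the smallest p, and cell type markers. ADAMTS1, NEDD4 and RBPJ were named after their values were seen. Gene locations and promoters are from RefSeq (GRCh38.p14).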

Additional observations from a re-analysis of the deposited data

How the results depend on the processing

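The number of receptors, ligands and targets at an adjusted p under 0.05 (0 in edgeR on all libraries) was 1 with DESeq2, 3 with voom with sample quality weights and 3 with DESeq2 on 5 libraries without AdSirt4 replicate 1, an alternative chosen after seeing the data; leaving out 1 library gave 0 to 3. At an unadjusted p under 0.01 (1) it was 4 with voom, 0 with limma on log2(FPKM + 1) and a replicate block, 3 with DESeq2 on 5 libraries, and 0 to 3 with 1 library left out, being 0 without AdCtrl replicate 1 or 3 and 3 without AdSirt4 replicate 1. All genes at an adjusted p under 0.05 (2) numbered 206 with DESeq2, 5 with no filter on low counts, 4 with at least 10 counts in every sample, 1 with the replicate block, 12 with the length trend removed, 6 with that and the block, 1685 with voom, 0 with log2(FPKM + 1) with or without the block, 1 with log2(FPKM + 0.1), 5 with a mean FPKM of at least 1, 1702 with DESeq2 on 5 libraries, and 0 to 1227 with 1 library left out. All genes at an unadjusted p under 0.01 (338) numbered 671 with DESeq2, 779 with the length trend removed, 694 with that and the block, 2401 with voom, 216 with a mean FPKM of at least 1, 2092 with DESeq2 on 5 libraries, and 82 to 2070 with 1 library left out. The pathway list had, at an adjusted p under 0.05 (0), 1 with DESeq2 (HES7), 3 with voom (HES7, LFNG and NEDD4), 6 with DESeq2 on 5 libraries and 0 to 2 with 1 library left out. At an unadjusted p under 0.01 (1) it had 2 with the length trend removed (HES7 and LFNG), 7 with voom, 8 with DESeq2 on 5 libraries and 1 to 6 with 1 library left out. Added to the main edgeR fit, the replicate block left the counts for the receptors, ligands and targets and for the pathway list unchanged. In that fit 242 of all genes passed an unadjusted p of 0.01. With limma on log2(FPKM + 1) 376 genes passed it without the block and 244 with the block. With the length trend removed, adding the block took the pathway list from 2 to 1.

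The SIRT4 log2 fold change was 4.88 with limma on log2(FPKM + 1), where it missed the adjusted threshold (adjusted p = 0.0847, and 0.150 with the replicate block), and 6.10 to 6.59 with 1 library left out, missing it without AdCtrl replicate 1, 2 or 3 (edgeR adjusted p = 0.0559, 0.203 and 0.186). Genes with groups that do not overlap rose from 2 to 4 without AdSirt4 replicate 1 (2 to 4 over the left-out libraries), and the NOTCH2 share turned from -1.55 to 1.43 points there (-3.37 to 1.43 over the left-out libraries). NOTCH1 turned to 0.045 on the log2 scale with voom and 0.072 with DESeq2 on 5 libraries and ranged from -0.27 to 0.068 with 1 library left out, being above 0 without AdSirt4 replicate 1. NOTCH2 turned to 0.031 and 0.097 and ranged from -0.50 to 0.092 likewise. JAG2, near 0 throughout, was -0.036 with voom, -0.00036 with limma on log2(FPKM + 1) under each filter and with the block, -0.0022 with log2(FPKM + 0.1), and -0.079 to 0.069 with 1 library left out. The causes of these shifts were not tested.

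With 3 libraries a group the exact permutation test cannot go below 0.1, and depth limits DLL1 and DLL4, where counts of 0 to 24 per library could not show a small difference. The length trend of AdSirt4 replicate 1 touches the long receptors most, and whether other features of that library moved JAG1, NOTCH3 or NRARP was not tested. RNA levels do not measure receptor cleavage or ligand at the cell surface.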
